A study of Mus musculus with 20 samples.

Results

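The 10 genes described here encode proteins that interferon gamma induces: the ubiquitin-like modifier FAT10 (Ubd), the guanylate-binding proteins Gbp2, Gbp3, Gbp6 and Gbp7, the immunity-related GTPases Igtp, Irgm1 and Irgm2, and the inducible proteasome subunits Psmb8 and Psmb9. They were taken by symbol from the 32400 genes of the deposited table, and all 10 were found. They were chosen by their levels in these libraries, so their differences between the groups are given as a description, with no p-value. Where one of them is said to pass or not pass the threshold (adjusted p below 0.05), this too is a description. It is no test of a chosen gene. Each one passed the filter on low counts.

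The series holds 20 liver mRNA libraries of mice of the substrain C57BL/6NTac, which fall into 3 groups. The HFHF Flcn gRNA group (n = 8) was given AAV8, a virus vector that reaches hepatocytes, with a guide RNA against the folliculin gene Flcn, and was fed high fat and high fructose (HFHF). The HFHF control group (n = 7) was given the vehicle PBS and fed in the same way. The chow control group (n = 5) stayed on standard chow and was untreated, so that diet and vehicle injection differ together between the control groups. The vehicle held no vector, so that the guide and the vector differ together between the HFHF groups. The sex and age of the mice, the time on diet, the vector dose and the nuclease and its promoter were not given in the sources used. No label ties a library to an animal of its own, and p-values therefore measure the spread between these samples, which may be technical.

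Total estimated counts per library were 13974379 to 19586576 in the gRNA group, 15244760 to 18194089 in HFHF control and 14131976 to 16285324 in chow control. Levels are CPM, counts scaled to library size with TMM factors. Flcn, the target of the guide, was at 17.8 ± 2.40 CPM in the gRNA group and at 20.7 ± 2.98 CPM in HFHF control (SD, n = 8 and 7), a log2 difference of -0.22 (SE 0.12, adjusted p = 0.140, edgeR's quasi-likelihood test). Edits by a guide need not lower a transcript, and where the guide cuts was not given in the sources used, so this level does not check the labels. Hepatocyte markers summed to 50577 to 82015 CPM in the gRNA group, 44935 to 65153 in HFHF control and 76331 to 97616 in chow control, and none of these markers had 0 counts over a group. The title of gRNA replicate 8 differs from the others in its second number. Over the 10 genes that library lay a mean of -0.005 log2 units from its group's mean. This mean joins deviations of both signs, from -0.36 for Gbp2 to 0.28 for Psmb9.

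Interferon gamma, made mainly by T and natural killer cells, acts through the receptor chains IFNGR1 and IFNGR2 and the kinases JAK1 and JAK2, and reaches its target genes through a DNA element called GAS. The pathway also raises IRF1, which binds a second element, the ISRE, so that many target genes carry either or both. The GTPases coat or guard membranes around intracellular pathogens, the inducible proteasome subunits change which peptides are cut for MHC class I, and FAT10 marks proteins for the proteasome. In liver, FAT10 has been known as a gene of inflamed and fatty tissue, induced jointly by interferon gamma and tumour necrosis factor.

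Promoter sequence was read from RefSeq (build GRCm38.p6) to show which of these elements lie close to the starts of the genes. The RefSeq table held 9 of the 10 genes, in 10 windows that run from 250 bases before to 50 bases after a start; Gbp6 was not among them. GAS was searched as TTCNNNGAA and the core of the ISRE as GAAANNGAA, on both strands. Of all 32851 windows of that length, 8.3% held GAS, 8.56% the ISRE core and 15.8% either. Among the 9 genes, GAS was found in 4 (Gbp7, Igtp, Irgm2 and Psmb8), the ISRE core in 6 (Gbp2, Gbp3, Gbp7, Igtp, Irgm1 and Irgm2) and either in 7. Ubd and Psmb9 held neither, which says only that these letters are not in these windows. A match is a string of letters and not a measured binding site.

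The 120 bases before the start are printed for the 4 genes whose stretch touches no annotated exon in GENCODE M21: the modifier with the largest differences between groups, which has no match, and 3 GTPases with both motifs. They are chr17:37193772-37193891 (Ubd), chr3:142530216-142530335 (Gbp7), chr11:58199436-58199555 (Igtp) and chr11:58214857-58214976 (Irgm2), all on the plus strand and written 5′ to 3′. Capitals mark the matches.
Ubd: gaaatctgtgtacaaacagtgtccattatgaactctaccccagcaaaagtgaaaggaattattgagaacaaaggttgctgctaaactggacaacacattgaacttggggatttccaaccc
Gbp7: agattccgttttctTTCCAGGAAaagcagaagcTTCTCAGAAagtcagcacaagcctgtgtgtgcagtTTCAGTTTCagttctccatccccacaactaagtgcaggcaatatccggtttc
Igtp: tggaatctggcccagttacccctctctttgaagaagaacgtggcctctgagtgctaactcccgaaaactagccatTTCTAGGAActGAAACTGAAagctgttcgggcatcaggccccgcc
Irgm2: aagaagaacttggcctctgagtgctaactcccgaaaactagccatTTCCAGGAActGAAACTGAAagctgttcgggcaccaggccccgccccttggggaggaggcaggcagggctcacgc
In Igtp the GAS match TTCTAGGAA began 45 bases before the start and the ISRE core GAAACTGAA 34 bases before it. In Irgm2 the same pair stood as TTCCAGGAA and GAAACTGAA, 75 and 64 bases before that start. The windows of these 2 genes shared a run of 61 identical bases, which lay after the motifs, against at most 13 for any other pair (Gbp3 with Gbp7). Gbp7 held TTCCAGGAA, TTCTCAGAA and TTCAGTTTC, the last a core read on the minus strand. On that strand Gbp2 held 1 core, TTCACTTTC, and Gbp3 a pair that overlapped each other, TTCAGTTTC and TTCTATTTC. Irgm1 held GAAATAGAA and GAAACCGAA, also overlapping, and Psmb8 the GAS match TTCCCAGAA. No GAS match overlapped an ISRE core in these windows.

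The genes lie on 4 chromosomes (GENCODE M21, GRCm38), where Irgm1 is 9327873 bases from Igtp and Ubd 2992438 bases from Psmb8. On chromosome 3, plus strand, Gbp7 (ENSMUSG00000040253) spans 142530342 to 142550149, Gbp3 (ENSMUSG00000028268) 142560026 to 142573209 and Gbp2 (ENSMUSG00000028270) 142620602 to 142638008. Gbp6 (ENSMUSG00000104713) lies apart from them on chromosome 5, 105270702 to 105293698, minus strand. On chromosome 11, Irgm1 (ENSMUSG00000046879) spans 48861968 to 48871683 on the minus strand, and on the plus strand Igtp (ENSMUSG00000078853) spans 58199556 to 58207591 and Irgm2 (ENSMUSG00000069874) 58199618 to 58222782. On chromosome 17, Psmb9 (ENSMUSG00000096727, minus strand) spans 34181987 to 34187764, Psmb8 (ENSMUSG00000024338, plus strand) 34197721 to 34201454 and Ubd (ENSMUSG00000035186, plus strand) 37193892 to 37196095. In this annotation Igtp and Irgm2 overlap over 7974 bases on the same strand, so reads there could be split between them and their separate levels are uncertain. The stretch printed above for Irgm2, 58214857 to 58214976, lies inside the span of Irgm2 but past the end of Igtp at 58207591, outside the overlap. The RefSeq start used for Irgm2 is therefore not the first base of the gene in GENCODE, from which the overlap was taken. Igtp, Irgm2, Gbp3, Gbp6 and Gbp7 had non-whole estimated counts in all 20 libraries, Gbp2 in 13 and Irgm1 in 10, which arises where reads are assigned to a gene in part. Ubd, Psmb8 and Psmb9 had whole counts in all 20.

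Ubd differed most between the groups. In bulk liver, fewer cells of a type and less RNA per cell cannot be told apart, here and in what follows. Ubd held 3.72 to 6.52 CPM in the gRNA libraries (median 4.90) and 14.5 to 29.1 CPM in the HFHF control libraries (median 19.5). The 5 chow libraries held 0.368, 0.531, 0.454, 0.891 and 0.700 CPM, which rest on 5, 8, 6, 12 and 9 counts. The 3 groups did not overlap at any library. The group means were 5.07 ± 1.06 CPM in the gRNA group, 20.4 ± 5.24 CPM in HFHF control and 0.589 ± 0.209 CPM in chow control (SD). Its fitted log2 fold change was -2.01 for gRNA against HFHF control (SE 0.15, 95% interval -2.33 to -1.70), 5.10 for HFHF control against chow (SE 0.25, 4.58 to 5.62) and 3.09 for gRNA against chow (SE 0.26, 2.54 to 3.63). On the linear scale the gRNA group stood at 0.248 times HFHF control and at 8.49 times chow control.

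**Figure D1:**
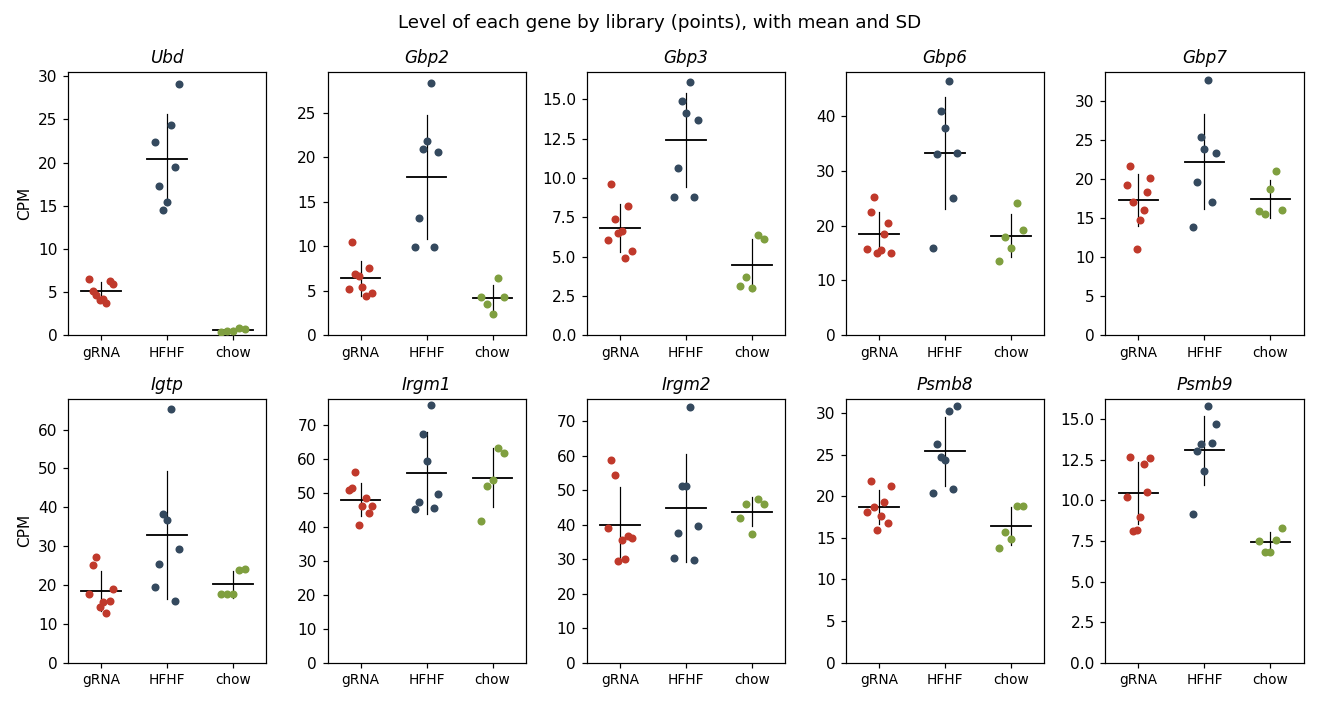
Level of each gene in CPM (vertical axis, linear from 0) in every library of the HFHF Flcn gRNA, HFHF control and chow control groups; points are libraries, horizontal bars group means and vertical lines the SD. The Ubd libraries form 3 separate bands, at 3.72 to 6.52, 14.5 to 29.1 and 0.368 to 0.891 CPM, while the Irgm1 and Irgm2 libraries of the 3 groups share 1 range.

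Of the guanylate-binding proteins, large GTPases that assemble on pathogen vacuoles, Gbp2 stood furthest apart. Gbp2 held 4.39 to 10.4 CPM in the gRNA libraries (median 6.07) and 9.87 to 28.3 CPM in HFHF control (median 20.6). The chow libraries held 4.34, 3.52, 2.35, 6.46 and 4.28 CPM. A single gRNA library, replicate 2, reached the level of the lowest HFHF control libraries, replicates 1 and 6 at 9.87 and 9.92 CPM. Its log2 fold change was -1.47 for gRNA against HFHF control (SE 0.24), 2.09 for HFHF control against chow (SE 0.31) and 0.62 for gRNA against chow (SE 0.31).

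Gbp3, its neighbour on chromosome 3, held 4.91 to 9.61 CPM in the gRNA libraries (median 6.57) and 8.80 to 16.1 CPM in HFHF control (median 13.7). In chow control it held 3.16, 3.72, 3.03, 6.39 and 6.15 CPM. The same library, gRNA replicate 2, was the only one of its group within the HFHF control range. The log2 fold change of Gbp3 was -0.86 for gRNA against HFHF control (SE 0.18), 1.47 for HFHF control against chow (SE 0.22) and 0.61 for gRNA against chow (SE 0.22).

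Gbp6, on chromosome 5, held 14.9 to 25.2 CPM in the gRNA libraries (median 17.2) and 15.9 to 46.4 CPM in HFHF control (median 33.3). In chow control it held 13.6, 17.9, 16.0, 24.1 and 19.2 CPM. The gRNA and chow libraries covered nearly the same range, and HFHF control replicates 1 and 6, at 15.9 and 25.0 CPM, lay within the gRNA range. The log2 fold change of Gbp6 was -0.84 for gRNA against HFHF control (SE 0.19), 0.87 for HFHF control against chow (SE 0.22) and 0.03 for gRNA against chow (SE 0.21, 95% interval -0.41 to 0.47).

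Gbp7, the most upstream gene of the chromosome 3 group, differed less. It held 11.1 to 21.7 CPM in the gRNA libraries (median 17.7), 13.8 to 32.6 CPM in HFHF control (median 23.3) and 15.9, 15.5, 18.7, 21.02 and 16.0 CPM in chow control. All 3 ranges overlapped. Gbp7 had a log2 fold change of -0.36 for gRNA against HFHF control (SE 0.15, 95% interval -0.68 to -0.04) and 0.35 for HFHF control against chow (SE 0.18, -0.02 to 0.72), and neither passed the threshold. Without HFHF control replicate 1, the lowest of its group, these values were -0.45 and 0.44 and both passed. The first also passed without gRNA replicate 2 (-0.43) or HFHF control replicate 6 (-0.42) and with DESeq2 (-0.37), and both passed with upper-quartile scaling (-0.42 and 0.44).

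The immunity-related GTPases named here are the regulatory class, which keep the effector GTPases of the family inactive on the cell's own membranes. Igtp held 12.8 to 27.2 CPM in the gRNA libraries (median 16.7) and 15.7 to 65.2 CPM in HFHF control (median 29.3). In chow control it held 17.7, 17.6, 17.6, 23.9 and 24.1 CPM. HFHF control replicate 5, at 65.2 CPM, was the highest of its group, and the other 6 libraries reached 38.4 CPM. The log2 fold change of Igtp was -0.83 for gRNA against HFHF control (SE 0.25), 0.70 for HFHF control against chow (SE 0.29) and -0.13 for gRNA against chow (SE 0.28). The diet value was 0.48 and no longer past the threshold without that library. It was also lost without HFHF control replicate 3, 4 or 7, without chow replicate 1, 2 or 3 and without gRNA replicate 7, with values of 0.67 to 0.73, and with no filter on low counts (0.74) or a fit of the 2 groups alone (0.71).

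Irgm1, known for its part in autophagy of intracellular bacteria, and Irgm2 passed the threshold in no comparison. Irgm1 held 40.5 to 56.0 CPM in the gRNA libraries (median 47.3), 45.0 to 75.7 CPM in HFHF control (median 49.5) and 41.6, 52.0, 53.7, 63.1 and 61.7 CPM in chow control. Irgm2 held 29.5 to 58.9 CPM in the gRNA libraries (median 36.5), 29.7 to 74.2 CPM in HFHF control (median 39.7) and 42.1, 46.1, 37.2, 47.5 and 46.0 CPM in chow control. For both genes all 3 groups overlapped. For gRNA against HFHF control the log2 fold change was -0.22 for Irgm1 (SE 0.11, 95% interval -0.45 to 0.01) and -0.16 for Irgm2 (SE 0.19, -0.55 to 0.23). For HFHF control against chow it was 0.03 for Irgm1 (SE 0.13, -0.23 to 0.30) and 0.03 for Irgm2 (SE 0.21, -0.41 to 0.48), with a sign that turned when single libraries were left out.

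Psmb8 encodes the inducible subunit LMP7, which takes the place of PSMB5 in newly built proteasomes. It held 16.0 to 21.9 CPM in the gRNA libraries (median 18.4) and 20.4 to 30.9 CPM in HFHF control (median 24.8). In chow control it held 13.8, 15.7, 14.9, 18.8 and 18.9 CPM. Every HFHF control library lay above every chow library, and HFHF control replicates 1 and 6 lay within the gRNA range. Psmb8 had a log2 fold change of -0.44 for gRNA against HFHF control (SE 0.09), 0.63 for HFHF control against chow (SE 0.11) and 0.19 for gRNA against chow (SE 0.11).

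Psmb9, 9957 bases from Psmb8 on the other strand, encodes LMP2, which takes the place of PSMB6. It held 8.10 to 12.7 CPM in the gRNA libraries (median 10.4) and 9.20 to 15.8 CPM in HFHF control (median 13.5). In chow control it held 7.50, 6.84, 6.81, 7.58 and 8.33 CPM. Every HFHF control library again lay above every chow library, while the gRNA libraries reached into both ranges. Psmb9 had a log2 fold change of -0.33 for gRNA against HFHF control (SE 0.11), 0.82 for HFHF control against chow (SE 0.14) and 0.50 for gRNA against chow (SE 0.13). Without gRNA replicate 3 or 4, or HFHF control replicate 5 or 7, the first value was -0.30 to -0.28 and no longer past the threshold.

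**Figure D2:**
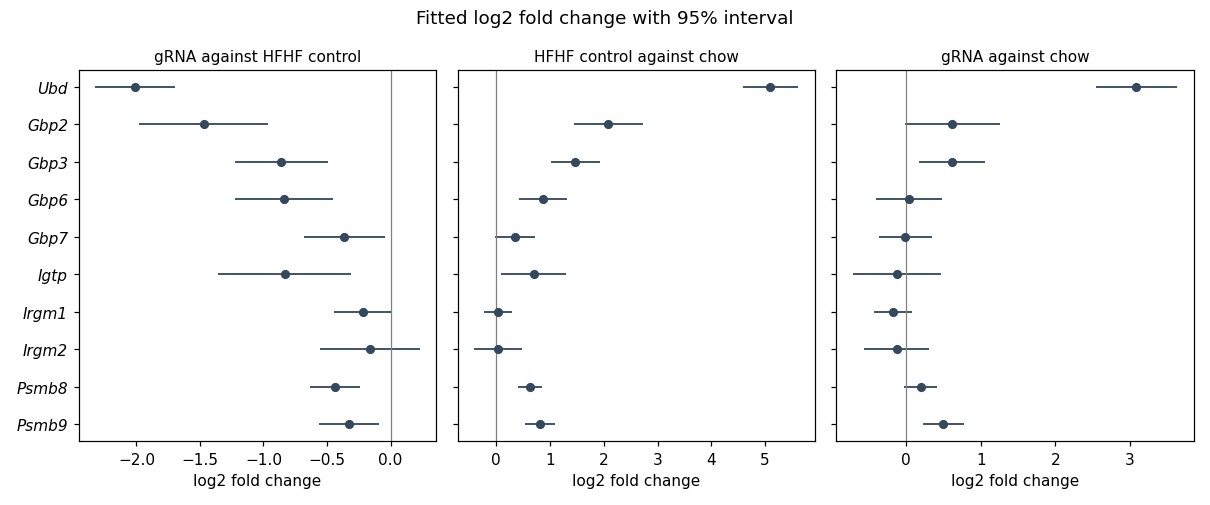
Fitted log2 fold change (horizontal axis) of each gene in the 3 comparisons, with 95% intervals as lines. The intervals of Irgm2 include 0 in each panel, and those of Ubd lie at -2.33 to -1.70, 4.58 to 5.62 and 2.54 to 3.63.

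Counted together, 7 of the 10 genes passed the threshold as lower in the gRNA group than in HFHF control (adjusted p below 0.05 in edgeR's quasi-likelihood test over 13667 genes), and the fitted values of all 10 were below 0. Over all genes 19.0% were called lower and 19.6% higher. Groups did not overlap for 1 gene, Ubd, against 6.01% of all genes with every gRNA library below every HFHF control library. Between HFHF control and chow, 7 were called higher and all 10 fitted values were above 0, against 28.1% of all genes called higher and 28.9% lower, and 5 (Ubd, Gbp2, Gbp3, Psmb8 and Psmb9) did not overlap, against 18.8% with every HFHF control library above. Between gRNA and chow, 3 (Ubd, Gbp3 and Psmb9) were called higher and 0 lower, against 20.9% and 21.7%, and 1, Ubd, did not overlap, against 9.01%. Since the genes were chosen on these contrasts, nothing is read from the counts. The median log2 fold change of the 10 was -0.64, 0.76 and 0.11 in these 3 comparisons, beside 0.00965, -0.0104 and 0.00343 over all genes. Each pair of comparisons shares a group of libraries, so no relation between their values is given. Gbp3 was no longer called against chow without chow replicate 1, 2 or 3, and Gbp2 was called without chow replicate 4 (0.85) or with 2 groups only (0.63).

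The order of the 10 genes was set by levels per length, CPM per kilobase of joined exons. In the gRNA group Irgm2 came first at 10.8 ± 2.94, then Igtp at 9.12 ± 2.53 and Irgm1 at 8.25 ± 0.83, with SD ranges that overlapped from one to the next, and Ubd was the fifth at 5.44 ± 1.14, with an SD range that overlapped that of Psmb8 at 5.54 ± 0.60. In HFHF control Ubd came first at 21.9 ± 5.62, with an SD range that overlapped that of Igtp at 16.3 ± 8.16, and so did those of all neighbours in that order. In chow control Irgm2 again came first at 11.9 ± 1.14, Igtp stood at 9.98 ± 1.73 and Irgm1 at 9.36 ± 1.49, and Ubd was the last of the 10 at 0.633 ± 0.224, below the SD range of Gbp3 at 1.37 ± 0.504.

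Within a group the levels of the genes tended to vary together from library to library, to a degree that differed between groups and pairs of genes. HFHF control replicate 5 had the highest level of 8 of the 10 genes in its group and lay above the group mean for all 10, and replicate 1 had the lowest of 6. In the gRNA group replicate 2 was highest for 6 genes and above the mean for all 10, and replicate 4 lowest for 5. In chow control replicate 4 was highest for 7 and above the mean for all 10. The group means are taken out of these deviations. Whether the deviations are independent of the choice of the genes was not tested. The p-values of their correlations are thus those of genes chosen with results of these data known.

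**Figure D3:**
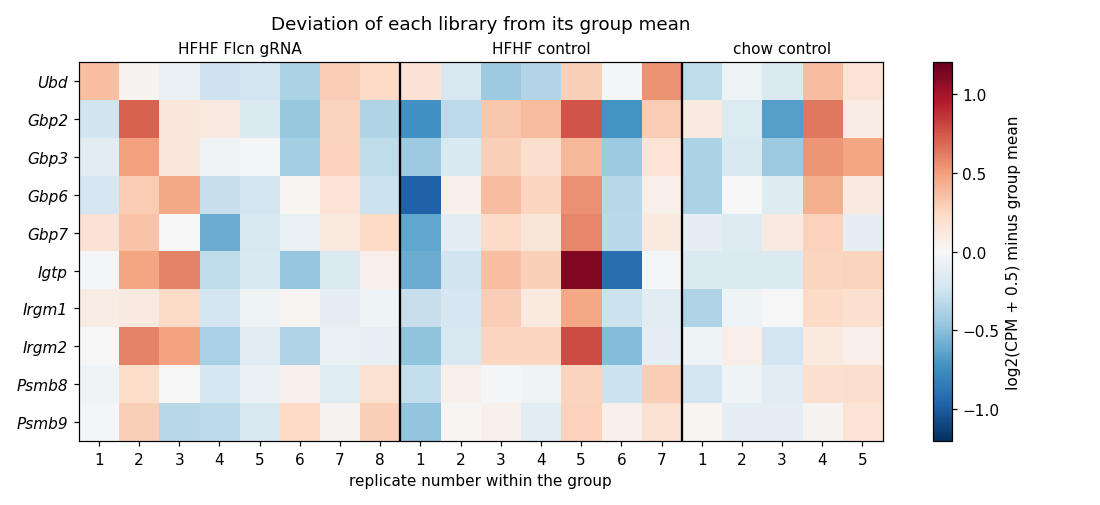
Deviation of each library (columns, by group and replicate) from its group's mean of log2(CPM + 0.5), in log2 units by colour, for the 10 genes (rows). HFHF control replicate 5 is above its group's mean for all 10 genes and replicate 1 for 1 of 10. Over all libraries together, the Ubd row follows the others least.

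The correlation of these deviations over the 20 libraries was positive for all 45 pairs of the 10 genes, with Pearson's r of 0.044 to 0.95 and a median of 0.66. With p-values from 100000 permutations within groups and Benjamini-Hochberg adjustment over the 45 pairs, 30 passed by Pearson's r and 29 by Spearman's rho. Igtp and Irgm2, which share sequence, had r = 0.95 and rho = 0.93 (permutation p = 1e-05, the smallest possible, and 2e-05, n = 20, r = 0.93 without the 2 farthest libraries). Reads could be split between these 2 genes, as given above, which limits what their r shows. Gbp2 and Gbp3 had r = 0.89 and rho = 0.88 (permutation p = 1e-05 for each; n = 20; r = 0.86 without the 2 farthest libraries). Psmb8 and Psmb9 had r = 0.70 and rho = 0.64 (permutation p = 0.00074 and 0.00324, adjusted 0.00211 and 0.00729; n = 20; r = 0.64 without the 2 farthest libraries). None of the 9 pairs with Ubd passed by either measure. Their r was 0.044 to 0.45, the highest with Psmb8 (r = 0.45 and rho = 0.36, permutation p = 0.0746 and 0.157, adjusted 0.108 and 0.227, n = 20). The other 6 pairs that did not pass by Pearson's r were those of Psmb9 with Gbp2, Gbp3, Gbp6, Igtp, Irgm1 and Irgm2. All pairs share the library and its scaling, so a library's depth and composition enter each of them.

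Among the genes outside the 10 whose deviations were most like theirs, by mean r over the 10 genes and 20 libraries, were Cxcl9 (0.72), Tgtp1 (0.70), Gm12250 (0.68), Trim30d (0.67) and Zbp1 (0.67). The median of this mean over all 13667 tested genes was 0.00579, and 53 genes reached 0.5. Cxcl9 held 10.7 to 22.7 CPM in the gRNA libraries, 14.1 to 49.2 CPM in HFHF control and 6.50 to 14.6 CPM in chow control, and HFHF control replicate 5 was its highest library as well.

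The rest of the interferon gamma pathway is given by lists, which were also chosen with earlier results of these data known. The genes named from them were mostly picked by smallest p in the same libraries. Their p-values are therefore no independent support for the 10 genes. In the lists, gRNA against HFHF control is called the guide comparison and HFHF control against chow the diet comparison, although vector and vehicle differ with them. Over all genes 19.0% were called lower and 19.6% higher in the guide comparison, and 28.1% higher and 28.9% lower in the diet comparison. Some list counts lie near these shares, and nothing is read from the counts. Where a count of 0 is given, DESeq2 also called 0 genes of the list in that direction and 0 had an unadjusted p below 0.05, unless other values stand beside it. Ifng itself was too low to test, with 18 counts in all 20 libraries together and 0 to 3 in any one. Of the 10 tested genes of the receptor and its signalling, 4 were lower in the gRNA group than in HFHF control and 0 higher, and 5 were higher in HFHF control than in chow and 0 lower. Their median log2 fold change was -0.21 and 0.49 in these comparisons.

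Ciita, the activator of MHC class II genes, averaged 2.38 ± 0.66 CPM in the gRNA group, 6.49 ± 1.47 CPM in HFHF control and 1.38 ± 0.39 CPM in chow control (SD, n = 8, 7 and 5). Each gRNA library was below each HFHF control library (log2 fold change -1.44, SE 0.17, adjusted p = 9.93e-07), and each of those was above each chow library (2.23, SE 0.22, adjusted p = 2.31e-08). Irf8, a transcription factor of myeloid cells, fell by 0.90 on the log2 scale in the guide comparison, written below as with the guide, (SE 0.16, adjusted p = 0.000106) and rose by 1.44 with diet (SE 0.19, adjusted p = 1.74e-06). The receptor chain Ifngr1 fell by 0.63 (SE 0.09, adjusted p = 1.75e-05) and rose by 0.82 (SE 0.11, adjusted p = 1.85e-06) in the same comparisons. Ifngr2, the other chain, rose by 0.92 with diet (SE 0.10, adjusted p = 1.13e-07) and did not pass with the guide (-0.20, SE 0.08, adjusted p = 0.0583). It passed as lower with the guide under upper-quartile scaling (-0.26), and without HFHF control replicate 2 or gRNA replicate 4, 6, 7 or 8 (-0.23 to -0.22).

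Irf1 did not pass with the guide (-0.21, SE 0.14, adjusted p = 0.259) or with diet (0.31, SE 0.16, adjusted p = 0.102). Its diet value passed without chow replicate 4 (0.50), without HFHF control replicate 6 (0.39) or with upper-quartile scaling (0.40). Nlrc5, the activator of MHC class I genes, was at -0.04 with the guide (SE 0.09, adjusted p = 0.775) and 0.01 with diet (SE 0.10, adjusted p = 0.907).

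Of the chemokines and enzymes that interferon gamma induces, 4 of 5 tested genes were lower in the gRNA group than in HFHF control. In HFHF control against chow 4 of the 5 were higher and 1 lower. Cxcl10, a ligand of the chemokine receptor CXCR3, averaged 3.44 ± 0.82 CPM in the gRNA group, 6.90 ± 1.83 CPM in HFHF control and 1.81 ± 0.83 CPM in chow control. It fell by 1.00 with the guide (SE 0.20, adjusted p = 0.000334) and rose by 1.94 with diet (SE 0.25, adjusted p = 1.13e-06). Cxcl9, another CXCR3 ligand, fell by 0.80 (SE 0.23, adjusted p = 0.0110) and rose by 1.55 (SE 0.29, adjusted p = 0.000150). Cd274, which encodes the checkpoint ligand PD-L1, fell by 0.92 (SE 0.15, adjusted p = 6.31e-05) and rose by 1.33 (SE 0.19, adjusted p = 2.96e-06).

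Of the 7 other guanylate-binding protein genes, 2 were lower with the guide (4 without HFHF control replicate 6) and 4 were higher with diet, and the rest did not pass. Gbp9 fell by 0.77 with the guide (SE 0.18, adjusted p = 0.00212) and rose by 1.03 with diet (SE 0.22, adjusted p = 0.000358). Gbp5, known in inflammasome assembly, fell by 0.72 (SE 0.20, adjusted p = 0.00574) and rose by 0.98 (SE 0.24, adjusted p = 0.00117). Of the 10 tested other immunity-related GTPases, 4 were lower with the guide and 0 higher, while with diet 4 were higher and 2 lower. Tgtp1, an effector GTPase, averaged 7.66 ± 2.94 CPM in the gRNA group, 22.96 ± 15.2 CPM in HFHF control and 9.06 ± 4.27 CPM in chow control. It fell by 1.59 with the guide (SE 0.36, adjusted p = 0.00203) and rose by 1.34 with diet (SE 0.42, adjusted p = 0.0114). Ifi47 fell by 0.53 with the guide (SE 0.15, adjusted p = 0.00932) and did not pass with diet (-0.09, SE 0.17, adjusted p = 0.679).

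The inducible subunits were also set against the constitutive subunits they replace, as a log2 ratio of counts within each library, which is free of library scaling. The ratio of Psmb8 to Psmb5 averaged -1.38 ± 0.21 in the gRNA group, -1.12 ± 0.21 in HFHF control and -1.37 ± 0.20 in chow control, with overlap between all groups. The ratio of Psmb9 to Psmb6 averaged -2.72 ± 0.25 in the gRNA group, -2.40 ± 0.20 in HFHF control and -3.20 ± 0.11 in chow control, and each HFHF control library was above each chow library. These ratios hold chosen genes and are given with no test. Psmb10, which encodes the third inducible subunit MECL-1 and is not one of the 10 genes, was tested against Psmb7, which it replaces. Psmb10 comes from a list that was also chosen with earlier results of these data known. Its test is therefore no independent support for the 10 genes.

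The log2 ratio of Psmb10 to Psmb7 ranged from -3.46 to -2.68 in the gRNA libraries (median -3.04) and from -3.01 to -2.21 in HFHF control (median -2.63). The chow libraries stood at -3.32, -3.11, -3.44, -2.94 and -3.01. HFHF control was the highest of the groups on average, with overlap at its lowest libraries, replicates 2 and 6. The gRNA group was lower than HFHF control by a mean difference of -0.44 (exact two-sided permutation test over 6435 regroupings, p = 0.00777, adjusted over the 3 comparisons p = 0.0117). HFHF control was higher than chow control by 0.56 (exact p = 0.00758 over 792 regroupings, adjusted p = 0.0117). The gRNA group did not pass against chow control (0.12, exact p = 0.390 over 1287 regroupings). Both genes enter the ratio, and Psmb10 by level alone did not pass with the guide, as given below. Psmb7 averaged 102 ± 6.92 CPM in the gRNA group, 92.3 ± 7.98 CPM in HFHF control and 93.9 ± 4.37 CPM in chow control (SD). In the guide comparison Psmb7 was not called in the main fit, and DESeq2 called it higher (0.14).

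**Figure D4:**
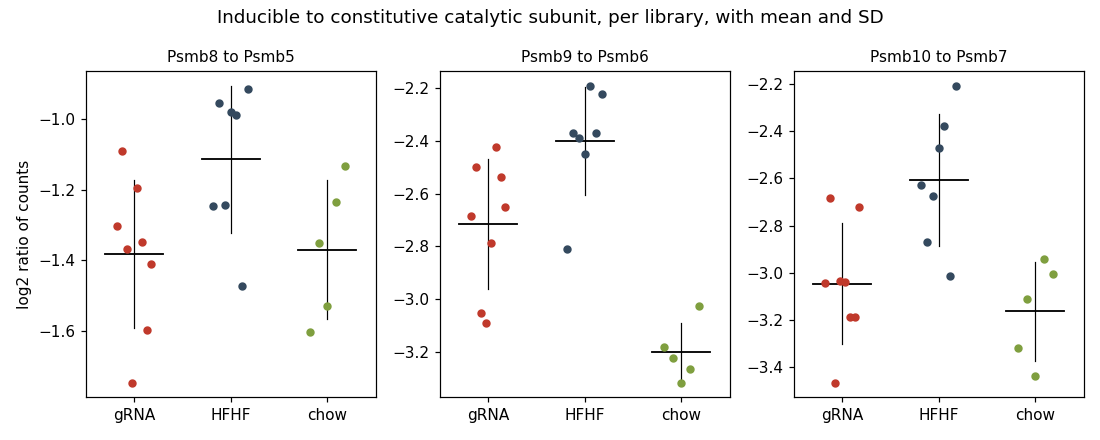
Log2 ratio of counts of each inducible proteasome subunit to the constitutive subunit it replaces (vertical axis, not starting at 0), by library in the HFHF Flcn gRNA, HFHF control and chow control groups; points are libraries, horizontal bars group means and vertical lines the SD. In the Psmb9 panel the chow libraries lie below every HFHF control library, and in the Psmb10 panel the HFHF control mean of -2.61 is above the means of -3.04 and -3.16.

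Of the 4 genes that encode Psmb10 and other partners of the inducible subunits, 2 were lower with the guide (1 without gRNA replicate 6 or HFHF control replicate 7, and up to 3 without other libraries) and 1 was higher with diet (1 to 3 when single libraries were left out, and 4 with upper-quartile scaling). By level alone Psmb10 did not pass with the guide (log2 fold change -0.29, SE 0.14, adjusted p = 0.0918) and rose with diet by 0.55 (SE 0.16, adjusted p = 0.00553). Its guide value was called without gRNA replicate 2 or 8 (both -0.37), without HFHF control replicate 6 (-0.35) or with upper-quartile scaling (-0.35). Psme1 and Psme2, which encode the proteasome activator PA28, fell with the guide by 0.40 (SE 0.08, adjusted p = 0.000321) and 0.20 (SE 0.07, adjusted p = 0.0252). Psme2 was not called without gRNA replicate 6 (-0.18), HFHF control replicate 6 (-0.19) or HFHF control replicate 7 (-0.18). With diet neither passed, at 0.20 (SE 0.09, adjusted p = 0.0605) and 0.15 (SE 0.08, adjusted p = 0.0990), and the Psme1 diet value passed in 15 of the 25 alternatives. Of the 14 genes of the constitutive core proteasome 0 passed with the guide in either direction (1 each way by unadjusted p below 0.05 and 1 each way by DESeq2) and 1, Psmb5, was higher with diet (0.37, SE 0.08, adjusted p = 0.000277). When single libraries were left out, 0 to 2 were higher and 0 to 1 lower with the guide (2 higher without HFHF control replicate 5), and 1 to 3 were higher with diet (3 without gRNA replicate 5 or 8).

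Of the 17 genes of MHC class I presentation, 7 were lower and 1 higher with the guide (2 higher without gRNA replicate 8), and 8 were higher and 3 lower with diet. Tapbp, the tapasin gene, averaged 49.3 ± 3.999 CPM in the gRNA group, 65.7 ± 5.22 CPM in HFHF control and 51.0 ± 2.85 CPM in chow control, with no overlap between HFHF control and either other group. It fell by 0.41 with the guide (SE 0.06, adjusted p = 9.34e-06) and rose by 0.36 with diet (SE 0.07, adjusted p = 7.68e-05). The classical gene H2-D1 fell by 0.32 (SE 0.06, adjusted p = 0.000318) and rose by 0.61 (SE 0.07, adjusted p = 3.05e-07). Erap1, a peptide-trimming protease, moved the other way, with a rise of 0.28 with the guide (SE 0.06, adjusted p = 0.00106) and a fall of 0.50 with diet (SE 0.07, adjusted p = 2.99e-06).

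FAT10 needs the enzymes UBA6 and UBE2Z to be attached to proteins. Of 8 genes of FAT10 attachment and ubiquitin, 0 passed with the guide in either direction, with values of -0.14 to 0.06, and 2 were higher and 1 lower with diet (0 lower without chow replicate 3 or 4, with no filter on low counts or with upper-quartile scaling). Ube2z was at -0.11 with the guide (SE 0.06, adjusted p = 0.128) and 0.03 with diet (SE 0.06, adjusted p = 0.746). Sqstm1, the autophagy receptor p62, rose by 0.36 with diet (SE 0.08, adjusted p = 0.000420) and was at -0.13 with the guide (SE 0.07, adjusted p = 0.148). The ubiquitin gene Ubb rose by 0.48 with diet (SE 0.09, adjusted p = 6.80e-05) and was at -0.07 with the guide (SE 0.08, adjusted p = 0.485). One of these genes was called lower with the guide without gRNA replicate 3 (Ube2z, -0.15) and 1 without gRNA replicate 8 (Rps27a, -0.17), and 3 with upper-quartile scaling.

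Type I interferon induces an overlapping set of genes. Of 15 such genes, 11 were lower and 1 higher with the guide, and 13 were higher and 1 lower with diet, with median log2 fold changes of -0.82 and 1.03. Oasl2 averaged 4.13 ± 1.24 CPM in the gRNA group, 10.3 ± 2.05 CPM in HFHF control and 3.01 ± 0.60 CPM in chow control, and fell by 1.32 with the guide (SE 0.16, adjusted p = 1.42e-06). Isg15, the other interferon-induced ubiquitin-like modifier, averaged 3.26 ± 0.45 CPM in the gRNA group, 7.02 ± 0.97 CPM in HFHF control and 3.26 ± 0.80 CPM in chow control. It fell by 1.11 with the guide (SE 0.13, adjusted p = 7.50e-07), with no overlap between the HFHF groups. Usp18, which removes ISG15 from proteins, was the gene that rose with the guide, by 0.56 (SE 0.15, adjusted p = 0.00516), and it also rose with diet, by 0.98 (SE 0.19, adjusted p = 0.000123).

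Markers of immune cells differed between the same groups. The 17 markers of T and natural killer cells summed to 7.52 to 16.9 CPM in the gRNA libraries, 13.2 to 32.2 CPM in HFHF control and 4.91 to 6.76 CPM in chow control. Of the 13 tested, 9 were lower and 1 higher with the guide (5 lower without HFHF control replicate 2), and 12 were higher and 1 lower with diet. Cd3e, a chain of the T cell receptor complex, fell by 1.18 with the guide (SE 0.27, adjusted p = 0.00141) and Nkg7, a granule gene, by 1.37 (SE 0.32, adjusted p = 0.00176). Cd4 went the other way in both, with 1.27 for the guide (SE 0.29, adjusted p = 0.00136) and -0.81 for diet (SE 0.34, adjusted p = 0.0432), and its diet call was lost in 16 of the 25 alternatives.

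The 16 macrophage and monocyte markers summed to 326 to 669 CPM in the gRNA libraries, 434 to 810 CPM in HFHF control and 180 to 338 CPM in chow control. With the guide 8 were lower and 3 higher, and with diet 11 were higher and 2 lower. Cx3cr1 and Ccr2, receptors of monocytes, fell by 2.25 (SE 0.26, adjusted p = 8.04e-07) and 1.91 (SE 0.23, adjusted p = 1.69e-06) with the guide, without overlap. Timd4, a gene of resident Kupffer cells, was higher with the guide, by 2.27 (SE 0.31, adjusted p = 9.97e-06), and fell by 2.36 with diet (SE 0.34, adjusted p = 6.04e-06).

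Of 9 tested B cell and dendritic cell markers, 5 were higher and 3 lower with the guide and 4 higher and 0 lower with diet (1 lower without HFHF control replicate 1), and they summed to 30.2 to 108 CPM in the gRNA libraries, 24.2 to 49.97 CPM in HFHF control and 13.2 to 27.1 CPM in chow control. Of 10 endothelial markers, 3 were higher and 0 lower with the guide (1 lower by unadjusted p below 0.05, with 3 called lower without gRNA replicate 7 and 1 without HFHF control replicate 3), and 1 was higher and 3 lower with diet (2 higher with 2 groups only). They summed to 196 to 346 CPM in the gRNA libraries, 197 to 290 CPM in HFHF control and 221 to 264 CPM in chow control. Of 10 hepatocyte markers, 4 were higher and 0 lower with the guide, and 0 were higher and 9 lower with diet. No marker in these lists had 0 counts over a whole group. The part of these marker levels in the differences of Ubd, the GTPases and the proteasome subunits was not tested.

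Between gRNA and chow, 3 of the 10 tested signalling genes and 0 of the 7 other guanylate-binding proteins were higher. Over all genes 20.9% were called higher and 21.7% lower in this comparison, and nothing is read from the list counts. Of the 5 chemokines and enzymes 2 were higher and 0 lower (1 lower by unadjusted p below 0.05, and 1 called lower without gRNA replicate 6 or 7). The number higher was 1 without chow replicate 1 or 3, without gRNA replicate 1, 2, 3, 7 or 8, or with no filter on low counts. Of the other immunity-related GTPases 3 were lower and 1 higher (0 higher without chow replicate 1 or 2, without gRNA replicate 7, or with 2 groups only). Of the proteasome partners 0 of 4 passed (1 lower by unadjusted p below 0.05, and 1 called lower without gRNA replicate 8). Of the 14 constitutive core subunits 2 were higher (4 without gRNA replicate 5, 1 with 2 groups only, 0 without gRNA replicate 4). For MHC class I presentation 2 genes were higher (4 without gRNA replicate 4 or 8, or with upper-quartile scaling) and 6 lower (3 without chow replicate 4 or 5, or with no filter). For FAT10 attachment and ubiquitin 2 were higher and 1 lower (0 lower without chow replicate 3 or 4, or with no filter). For type I interferon 4 were higher and 1 lower (3 lower without gRNA replicate 2, and 2 without HFHF control replicate 1 or gRNA replicate 3).

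In the same comparison 6 of the T and natural killer cell markers and 7 of the macrophage and monocyte markers were higher. Of the B cell and dendritic cell markers 5 were higher (2 without gRNA replicate 2 or 5, and 3 without chow replicate 2, 3, 4 or 5). Of the endothelial markers 2 were higher (1 without gRNA replicate 4 or 7, without chow replicate 2 or 3, or with 2 groups only), and 5 of the hepatocyte markers were lower. Both other comparisons share a group of libraries with this one.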

How the data were processed

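The values deposited by the authors are expected counts (estimated, partly fractional counts for each gene), of which 77.8% of those at or above 1 were whole within 1e-09. The genome build was GRCm38, per the submitters' processing notes. Per the labels' protocols, libraries were made with a KAPA mRNA kit and adapters with molecular identifiers and read single-end. The counting tool, its use of strand and of the identifiers were not given in the sources used, so precision from counts covers counting error only. The table had 32422 features; 22 construct features held 7.0 counts and were left out, and 1 column was not used. Groups come from the diet and treatment labels. Of the 32400 genes 32248 matched a GENCODE M21 symbol.

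Expected counts were rounded. Genes were kept with filterByExpr (13667), scaled with TMM and fitted over all 3 groups with edgeR 4.0.16 in R 4.3.3 (robust quasi-likelihood, 17 residual degrees of freedom, common biological coefficient of variation 0.164), with Benjamini-Hochberg adjustment and a threshold of 0.05. SE is the log2 fold change over the root of F. With upper-quartile scaling in place of TMM, 37.8% rather than 50.7% of the genes called for gRNA against HFHF control were higher, and 60.7% rather than 49.4% for HFHF control against chow; without the filter the second share was 56.3%. Deviations used log2(CPM + 0.5), and the subunit ratios, computed in Python 3.11.15 with scipy 1.17.1, had 0.5 added to each count. Over the 59 pairs of libraries of 1 group the lowest chi-square per degree of freedom was 12.3, and each library was counted once. The fit was tested on simulated counts. Alternatives were DESeq2 1.42.0, 2 other scalings, no filter, 2 groups only and leaving out each library.

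The members and the 14 lists were chosen with earlier results of these data known. The naming rule took all 10 members, up to 3 genes per list of smallest p in the gRNA contrast and up to 2 in the diet contrast, 8 genes of the pathway and the 6 genes most like the members; of these, the text gives a selection, and 1 gene that the rule names is not reported here.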

Additional observations from a re-analysis of the deposited data

Results flagged for a closer look

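Of 39 groups of values tested for a library far from the others, 1 was singled out; chance alone flags about 1 in 20. The log2 ratio of Psmb9 to Psmb6 in HFHF control replicate 1 was -2.81, the lowest of the 7 libraries of its group, while the other 6 lay between -2.45 and -2.19. The same library also had the lowest level of 6 of the 10 genes in its group. The difference of the group means of this ratio, -0.31 for gRNA against HFHF control, carries no test, since Psmb9 was chosen by its levels.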

How the results depend on the processing

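The number of genes past the threshold, the number of the 10 genes past it in each direction, and the log2 ratio of Psmb10 to Psmb7 kept their direction, and the counts stayed within 1.5 times, in all 268 recomputations. The 750 recomputed fold changes of the 10 genes each moved by less than 1 SD between libraries; the changed calls of Gbp2, Gbp3, Gbp7, Igtp and Psmb9 are given with the results. Values near 0 turned sign: leaving out single libraries gave -0.02 to 0.12 for Irgm1 and -0.09 to 0.12 for Irgm2 in HFHF control against chow, and -0.03 to 0.18 for Gbp6 and -0.04 to 0.09 for Gbp7 in gRNA against chow. When single libraries were left out, 4632 to 5330 genes passed for gRNA against HFHF control, 7204 to 7867 for HFHF control against chow and 5152 to 5921 for gRNA against chow. Of the 10 genes, 6 to 8 were then called lower for gRNA against HFHF control, 6 to 8 higher for HFHF control against chow and 2 to 4 higher for gRNA against chow. The difference in log2 ratio of Psmb10 to Psmb7 was -0.51 to -0.37, 0.49 to 0.63 and 0.05 to 0.18 in these comparisons. Of the recomputed list counts 109 moved by more than 1.5 times and 1991 did not; those that moved were mostly counts of 0 to 4 genes; the cause was not tested. Ubd in chow control rests on 5 to 12 counts per library, which limits the precision of its fold against chow. No paired analysis was possible because the replicate numbers follow accession order and pair no samples.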
